A study of Arabidopsis thaliana with 6 samples.

Results

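EXO (EXORDIUM, AT4G08950) and its relatives were followed on 6 Affymetrix arrays of Arabidopsis thaliana seeds through 8 probe sets of the 22746 that are not controls. The members are the EXO probe set 255064_at and 7 others whose gene title in the authors' deposited table contains "phosphate-responsive". EXO was chosen by its higher reading in mutant seeds in an earlier look at the same arrays, that is, selected on the contrast reported here, so its change is given as a description with no test. The 7 relatives were taken by title alone, but the family entered through EXO, with earlier results of these data known. Of the 8 titles, 4 read phosphate-responsive protein, putative, and 4 read phosphate-responsive 1 family protein. The RefSeq gene table lists 8 genes named EXORDIUM or EXORDIUM like, but the platform's gene table pairs EXO alone with a probe set, so the relatives are called by their probe set identifiers. All 8 identifiers end in _at without the letter that marks probe sets shared by several transcripts.

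The study compared 3 samples of wild-type Col-0 seeds with 3 samples of Col-0 seeds carrying a mutation in the MADS-box gene AGL67 (agl67). The labels do not name the mutant allele. Both genotypes were imbibed in water for 3 days at 4 °C in darkness and then moved to 22 °C and light for 3 hours in 5 µM ABA (abscisic acid, an inhibitor of germination). The comparison therefore asks what differs between agl67 and wild-type seeds that have all received ABA, and no sample without ABA was analysed here. RNA came from whole seeds, so fewer cells of a type and less RNA per cell cannot be told apart.

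EXO encodes a secreted protein of the cell wall space that is needed for cell expansion in Arabidopsis leaves and is induced by brassinosteroids, the steroid hormones of plant growth. The family takes its title from a tobacco gene, PHI-1, which was found as a transcript induced when phosphate was given back to starved cultured cells. EXO has been linked to the brassinosteroid-induced expression of the growth genes KCS1, EXPA5, TIP2;1 and AGP4, and an Arabidopsis relative, EXL1, to growth when carbon is scarce.

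AGL67 read 8.79, 8.25 and 8.78 on the log2 scale on the wild-type arrays and 4.15, 4.30 and 3.66 on the mutant arrays (log2 change -4.57, SE 0.21, limma adjusted p = 0.000887). The readings of the mutated gene thus match the genotype labels on all 6 arrays. Across the array, 438 probe sets were higher and 177 lower in the mutant at a limma adjusted p under 0.05, called passing below, a higher share of 71.2% that came to 56.9% when the arrays were quantile-normalized again. The third wild-type array had a median of 3.797, against 3.97 to 4.00 on the others. Cruciferin, 2S albumin and Em genes marked the tissue as seed: the summed level of 8 of 10 listed genes was 15.65 to 15.85 in wild type and 15.41 to 15.60 in the mutant, on the log2 scale. Of the 8, SESA4 fell by 1.91 (limma adjusted p = 0.0130), CRU2 fell by 0.64 (0.0432) and 6 did not pass, where 0.778% of all probe sets fell. The other changes ran from -0.48 for SESA1 to 0.13 for EM1. At an unadjusted limma p under 0.05, 4 of the 8 were lower and 0 higher (5.33% and 11.1% of all probe sets). For 4 of the 8 the mutant arrays lay wholly below the wild-type arrays (9.16% of all probe sets). Of the endosperm markers only EXPA2 (1 of 7) was paired with a probe set, and it read 3.47 to 4.25 in wild type and 4.31 to 4.92 in the mutant. The summed level of 6 of 8 seed coat markers, BAN, TT12, TT4, TT3, TT2 and TTG2, was 6.06 to 6.32 in wild type and 6.08 to 6.13 in the mutant. Singly these 6 read 2.58 to 4.39, near or below the array medians, and whether they lie above background was not tested. The summed level of the embryo epidermis markers PDF1 and PDF2 (2 of 3) was 7.26 to 8.07 in wild type and 7.67 to 7.69 in the mutant. The 2 went opposite ways, PDF1 by -0.51 (limma adjusted p = 0.238) and PDF2 by 0.31 (0.551). Without the third wild-type array, 1 of the 2 passed, as a fall. The part of seed composition in the results below was not tested.

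All 7 relatives read higher on average in agl67 seeds, where 54.9% of all probe sets did, as did EXO, which was chosen for it. The mutant arrays lay wholly above the wild-type arrays for 6 of the 7 relatives, against 14.9% of all probe sets, and wholly below them for none, against 9.16%. Of the 7 relatives, 3 rose, none fell and 4 did not pass. Rises were called for 1.93% of all probe sets, falls for 0.778% and either for 2.7%. At an unadjusted limma p under 0.05, 6 relatives were higher and 0 lower, where 11.1% of all probe sets were higher and 5.33% lower. The changes of the relatives ran from 0.14 to 2.13 on the log2 scale with a median of 0.71, against 0.02 over all probe sets. With EXO included, which was chosen for its rise, 4 members had changes above 1 and 4 had changes below 1. The share of all probe sets with changes above 1 was not computed.

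**Figure D1:**
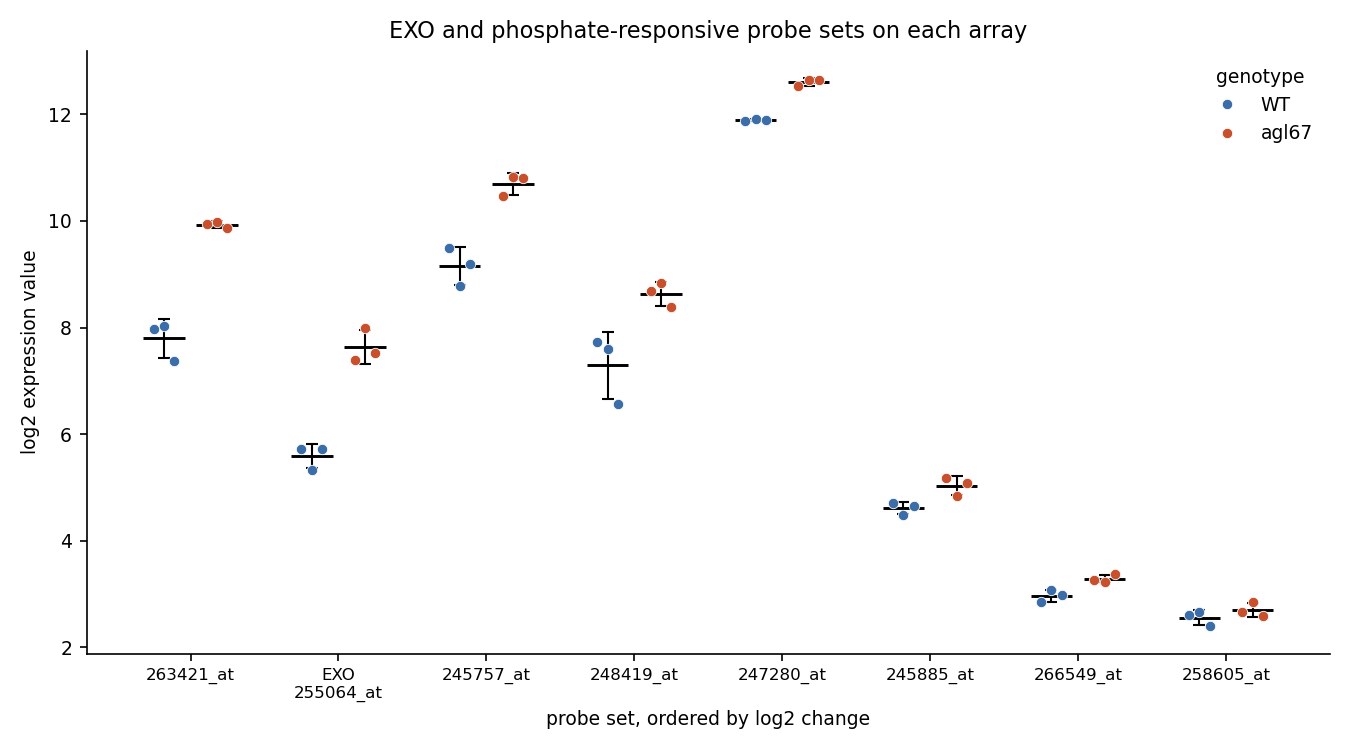
Log2 expression value of each of the 8 probe sets on each array (points), with the mean (horizontal line) and SD (bar) of the 3 arrays of each genotype. Mutant and wild-type points are apart for every probe set except 258605_at, and the gaps are widest for 263421_at and EXO.

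EXO itself read 5.71, 5.33 and 5.72 in wild type and 7.39, 8.00 and 7.53 in the mutant. Every mutant array stood at least 1.67 above the highest wild-type array, and the second mutant array was the highest of all. The means were 5.59 ± 0.22 and 7.64 ± 0.32 (SD, n = 3), a difference of 2.05 (SE 0.19), or 4.14-fold. In the authors' deposited table, which gives slightly different values for the same arrays, the EXO ratio was 2.16. Leaving out 1 array at a time moved the difference between 1.87, without the second mutant array, and 2.18, without the first mutant array.

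The genes beside EXO in the order of the RefSeq gene table did not pass. AT4G08940, on one side, read 4.53, 4.63 and 3.49 in wild type and 4.34, 4.78 and 4.62 in the mutant (log2 change 0.36, SE 0.30, limma adjusted p = 0.597). AT4G08960, on the other, read 8.23, 7.85 and 7.44 in wild type and 7.86, 8.05 and 7.74 in the mutant (0.05, SE 0.20, 0.931). The genotypes overlapped for both neighbours.

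Among the relatives, 263421_at, a phosphate-responsive 1 family protein, had the largest change. It read 7.98, 8.04 and 7.37 in wild type and 9.95, 9.98 and 9.86 in the mutant. The mutant arrays lay within 0.12 of each other and at least 1.83 above every wild-type array, and the third wild-type array was the lowest. It rose by 2.13 (SE 0.18, 95% interval 1.71 to 2.56, limma adjusted p = 0.00342), or 4.39-fold, and passed in all 6 fits that leave out 1 array (1.92 to 2.26). Its change and that of EXO differed by less than the SE of either.

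The probe set 245757_at, of a putative phosphate-responsive protein, read 9.49, 8.78 and 9.20 in wild type and 10.46, 10.83 and 10.81 in the mutant. The groups were 0.97 apart at their nearest arrays. It rose by 1.54 (SE 0.20, 95% interval 1.09 to 2.0, limma adjusted p = 0.0113). Without the second or the third mutant array it did not pass, with changes of 1.48 (adjusted p = 0.0805) and 1.49 (0.0838).

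The third riser, 247280_at, carries the same title and combined a small change with a small spread. It read 11.87, 11.92 and 11.89 in wild type and 12.52, 12.64 and 12.65 in the mutant. The wild-type arrays spanned only 0.04 and the mutant arrays 0.13, with 0.60 between the groups. It rose by 0.71 (SE 0.09, 95% interval 0.49 to 0.93, limma adjusted p = 0.0126), or 1.64-fold, an interval that lies wholly below those of 263421_at and 245757_at. Leaving out any 1 mutant array ended the call (0.69 to 0.75, adjusted p = 0.0629 to 0.0924).

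The probe set 248419_at, a phosphate-responsive 1 family protein, had a larger change than 247280_at but a wider spread. It read 7.72, 7.59 and 6.57 in wild type and 8.68, 8.83 and 8.38 in the mutant. The groups were apart by 0.66, and the third wild-type array lay about 1 log2 unit below the other wild-type arrays. The change was 1.33 (SE 0.30, 95% interval 0.64 to 2.02, limma adjusted p = 0.0654). It passed without the third wild-type array, with a smaller change of 0.97 (adjusted p = 0.00534), and with the arrays quantile-normalized again (1.24, 0.0232). In the authors' deposited table its ratio was 1.34 with a false discovery rate of 0.0929.

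The remaining relatives had changes below 0.5 and did not pass. The probe set 245885_at read 4.71, 4.48 and 4.65 in wild type and 5.18, 4.83 and 5.08 in the mutant, a change of 0.42 (SE 0.13, limma adjusted p = 0.154). The probe set 266549_at read 2.85, 3.07 and 2.97 in wild type and 3.27, 3.23 and 3.37 in the mutant, a change of 0.32 (SE 0.10, 0.179). In both, every mutant array was above every wild-type array, by 0.13 and 0.16. The probe set 258605_at read 2.62, 2.67 and 2.40 in wild type and 2.67, 2.84 and 2.58 in the mutant, and here the genotypes overlapped (0.14, SE 0.12, 95% interval -0.14 to 0.42, 0.629). Both 266549_at and 258605_at belong to the dimmest 40% of probe sets by mean reading, and whether they lie above background was not tested.

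**Figure D2:**
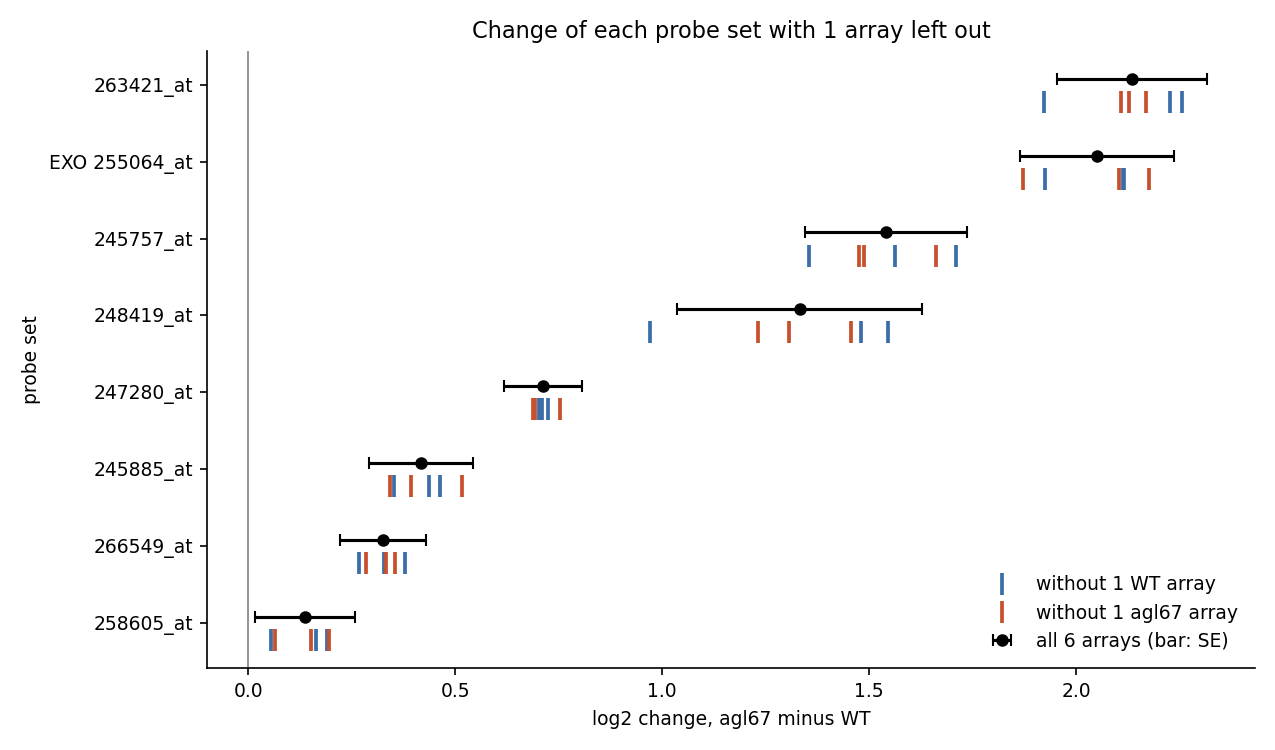
Log2 change (agl67 minus WT) of each probe set over all 6 arrays (point, bar: SE) and with 1 wild-type or 1 mutant array left out (ticks). No tick falls below 0, and the widest set of ticks is that of 248419_at, from 0.97 without the third wild-type array to 1.55 without the first.

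In the authors' deposited table EXO came just ahead of 263421_at, and the order of the others was the same. Its ratios were 2.12 for 263421_at (false discovery rate 0.00555), 1.58 for 245757_at (0.0157) and 0.69 for 247280_at (0.0117). For 245885_at it gave 0.27 (0.327), for 266549_at 0.26 (0.294) and for 258605_at 0.14 (0.625). The same 3 relatives were below a false discovery rate of 0.05 there, where 1.56% of all probe sets were called higher.

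Within a genotype, the 8 members did not all lie on the same side of their means on any array. After the mean of each genotype was taken off, 248419_at and 263421_at lay on the same side of their means on all 6 arrays, and both were lowest on the third wild-type array, by 0.72 and 0.43. The median deviation of all probe sets on that array was -0.09. EXO and 245757_at lay on the same side on 5 of 6 arrays, both lowest among wild-type arrays on the second. EXO and 263421_at, the members with the largest changes, shared a side on only 3 of 6. Over the 28 pairs of members, 1 pair shared a side on all 6 arrays, 3 on 5 and 4 on only 1. These counts describe readings that share the same 6 arrays. The deviations within a genotype cancel out by construction, some are small, and no share for other pairs of probe sets was computed.

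The genes whose 6 readings most resembled those of EXO were ranked by the root mean square difference of values centred on each probe set's mean. Since EXO was chosen for its difference between genotypes, the ranking finds genes with a like difference and is a description only. The nearest probe set naming 1 gene was AT2G34020, of a calcium-binding EF hand family protein, with 2.73, 3.04 and 3.06 in wild type and 4.79, 5.09 and 4.60 in the mutant (root mean square difference 0.24 log2 units, r = 0.97 over 6 arrays). Its wild-type readings lay below the array medians, and whether they lie above background was not tested. After AT2G34020 came AT3G45310, titled a cysteine proteinase (0.27, r = 0.97), the GDSL-motif lipase gene AT5G14450 (0.28, r = 0.97) and the harpin-induced family gene AT2G27080 (0.29, r = 0.96). They were followed by another calcium-binding protein gene, AT2G46600 (0.29, r = 0.97), and MSRB5, titled a methionine sulfoxide reductase (0.30, r = 0.96). The aspartyl protease gene AT1G01300 (0.31, r = 0.96) and AT4G01610, of a cathepsin B-like cysteine protease (0.31, r = 0.99), completed the 8. Their log2 changes ran from 1.52 for AT4G01610 to 2.19 for AT5G14450. Among all other probe sets, named or not, the ranks of these 8 ran from 4 for AT2G34020 to 17 for AT4G01610.

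The relatives took very different places in this order. Among all other probe sets, named or not, 245757_at ranked 14th by likeness to EXO (difference 0.30) and 263421_at 26th (0.35). The probe set 248419_at ranked 188th (0.58) and 247280_at 466th (0.70), the latter with a profile of the same shape (r = 0.98) and a smaller size. Ranks for the other relatives were 1924 for 245885_at, 2778 for 266549_at and 5887 for 258605_at.

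**Figure D3:**
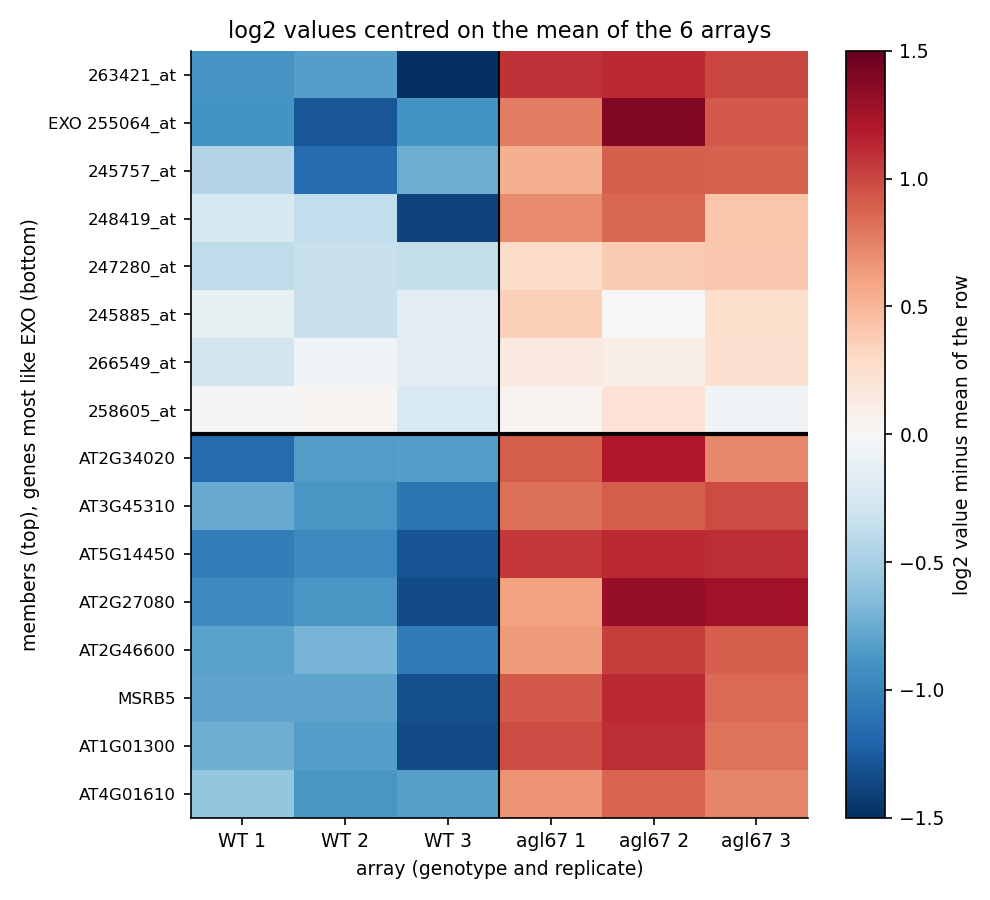
Log2 values of the 8 members (top rows) and of the 8 genes with readings most like those of EXO (bottom rows) on each array, centred on the mean of the 6 arrays in each row (blue: below, red: above). The upper 3 members share the strong contrast of the bottom rows between genotypes, and the row of 258605_at is close to its mean on every array.

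Genes of the pathways that the family is linked to were taken from lists, of which 50 of 108 genes were paired with a probe set. The listed genes of brassinosteroid inactivation, BAS1, SOB7, UGT73C5 and BEN1, were not paired and are not described below. Of these 50, 5 rose, none fell at a limma adjusted p under 0.05 and 45 did not pass, where 1.93% of all probe sets rose and 0.778% fell. At an unadjusted p under 0.05, 18 were higher and 2 lower (11.1% and 5.33% of all probe sets). Without any 1 of the mutant arrays 0 of the 50 passed, in fits on 5 arrays where the rises over all probe sets also came to 68 to 81 in place of 438. Without the second wild-type array 2 of the 50 passed (173 of all), and without the third 9 (877 of all).

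Brassinosteroid synthesis was represented by 7 of 10 listed enzymes. None passed, while 4 were higher and 0 lower at an unadjusted limma p under 0.05 (11.1% and 5.33% of all probe sets). All 7 had changes above 0 (54.9% of all probe sets), from 0.18 to 0.97 with a median of 0.41. For 5 the mutant arrays stood above all wild-type arrays (14.9% of all probe sets). The smallest change, that of DET2, was above 0 only through the third wild-type array. DET2 read 5.80, 5.73 and 4.88 in wild type and 5.65, 5.62 and 5.67 in the mutant. Without the third wild-type array the median of the 7 was 0.36. CPD, a cytochrome P450 of the pathway that is repressed by brassinosteroid itself, read 5.69, 5.97 and 4.97 in wild type and 6.46, 6.67 and 6.42 in the mutant (0.97, SE 0.24, limma adjusted p = 0.0936). DWF1, a sterol reductase, read 3.85, 4.20 and 4.16 in wild type and 4.64, 4.82 and 4.61 in the mutant (0.62, SE 0.13, 0.0554). Both stood apart between genotypes, and both passed without the third wild-type array, with 0.69 (adjusted p = 0.0153) and 0.66 (0.0207). With the arrays quantile-normalized again, CPD passed (0.82, adjusted p = 0.0258) and DWF1 did not (0.48, 0.123).

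In brassinosteroid signalling 6 of 28 listed genes were paired, none passed, and the median change was 0.03. At an unadjusted limma p under 0.05, 2 were higher and 1 lower (11.1% and 5.33% of all probe sets). The higher ones were the kinase genes BIN2, a repressor of the pathway, which read 8.06, 8.13 and 8.14 in wild type and 8.51, 8.52 and 8.58 in the mutant (0.43, SE 0.09, limma adjusted p = 0.0600), and its homologue BIL2 (0.45, SE 0.13, 0.136). BIN2 passed without the third wild-type array, with 0.44 (adjusted p = 0.0305). The lower gene was BIM1 (-0.38, SE 0.13, limma adjusted p = 0.204). Mutant arrays lay wholly above the wild-type arrays for 2 of the 6 and wholly below for 2 (14.9% and 9.16% of all probe sets). The receptor gene BRI1 averaged 7.00 in wild type against 7.19 in agl67, and its co-receptor BAK1 7.91 against 7.67, with the genotypes apart for BAK1 only, and neither passed (limma adjusted p = 0.584 and 0.363). A further 5 probe sets, found by the title brassinosteroid signalling positive regulator after the files were seen, had changes from -0.31 to 0.69, and none passed (2 higher, 0 lower at that unadjusted p).

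Of 9 paired genes (of 15 listed) known as induced by brassinosteroid during growth, 2 rose (1.93% of all probe sets) and 7 did not pass, with a median of 0.11. At an unadjusted limma p under 0.05, 3 were higher and 0 lower (11.1% and 5.33%). AGP4, which encodes an arabinogalactan protein of the cell surface, read 3.75, 3.81 and 2.81 in wild type and 5.08, 5.62 and 4.74 in the mutant. It rose by 1.69 (SE 0.32, limma adjusted p = 0.0401), and of the 6 fits on 5 arrays only the one lacking the third wild-type array kept the call, with changes of 1.37 to 1.89 over the 6. The authors' deposited table gave AGP4 a false discovery rate of 0.0701. Wild-type readings of AGP4 lay below the medians of their arrays, and whether they lie above background was not tested. TCH4, an enzyme that cuts and rejoins xyloglucan in cell walls, rose by 1.05 (SE 0.14, limma adjusted p = 0.0126), a call that was lost when any 1 mutant array was left out (0.99 to 1.11). The other genes tied to EXO did not pass: the fatty acid elongase gene KCS1 had a change of 0.68 (SE 0.27, limma adjusted p = 0.271), the tonoplast aquaporin gene TIP2;1 0.11 (0.822) and the expansin gene EXPA5 0.05 (0.837). KCS1 read 4.45, 4.06 and 3.60 in wild type and 4.50, 5.21 and 4.44 in the mutant, and its lowest mutant array lay just under its highest wild-type array. EXPA5 read only 3.06 to 3.28, among the dimmest 40% of probe sets, and whether it lies above background was not tested. The signs of TIP2;1 and EXPA5 turned in 1 of the 6 fits on 5 arrays each, that of EXPA5 also with arrays centred on their medians and that of TIP2;1 also with array weights.

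The phosphate starvation list, chosen for the family's title, had 12 of 29 genes paired, of which PAP10 rose (1.93% of all probe sets) and 11 did not pass, with a median of 0.07. At an unadjusted limma p under 0.05, 3 were higher and 0 lower (11.1% and 5.33%). PAP10, a secreted purple acid phosphatase, read 6.82, 6.44 and 5.83 in wild type and 7.59, 7.74 and 7.74 in the mutant and rose by 1.33 (SE 0.23, limma adjusted p = 0.0318). The call was lost when the second wild-type array (adjusted p = 0.0962) or any 1 mutant array (0.126 to 0.163) was left out, with changes of 1.30 to 1.38. The phosphate exporter gene PHO1 differed by 0.07 (limma adjusted p = 0.783), and PHR1, the regulator of the starvation response, by -0.16 (0.845) with one wild-type array, the third, at 7.20 and the others at 6.05 and 5.92. A further 7 probe sets titled SPX domain proteins, some of which sense phosphate, had changes from -0.40 to 0.51 and none passed (2 higher and 2 lower at that unadjusted p).

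In the list of low carbon and sugar starvation, linked to the family through EXL1, 16 of 22 genes were paired, 2 rose (1.93% of all probe sets) and 14 did not pass, with a median of 0.21. At an unadjusted limma p under 0.05, 6 were higher and 1, the glutamate dehydrogenase gene GDH2 (-0.36, limma adjusted p = 0.154), was lower (11.1% and 5.33%). DIN10, a dark-induced gene of the raffinose synthase family, read 8.15, 8.61 and 7.85 in wild type and 9.80, 10.01 and 9.70 in the mutant and rose by 1.63 (SE 0.20, limma adjusted p = 0.00925). DRM1, a dormancy-associated gene, read 9.12, 8.86 and 8.99 in wild type and 9.61, 9.56 and 9.59 in the mutant and rose by 0.60 (SE 0.10, 0.0322). Neither call held when any 1 mutant array was left out, with changes of 1.55 to 1.71 for DIN10 and 0.58 to 0.61 for DRM1. That of DRM1 was also lost when the second wild-type array was left out, with 0.53 (adjusted p = 0.0892). ASN1, the asparagine synthetase widely used as a marker of sugar starvation, differed by 0.15 (0.479), and SEN1 by 0.07 (0.896).

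**Figure D4:**
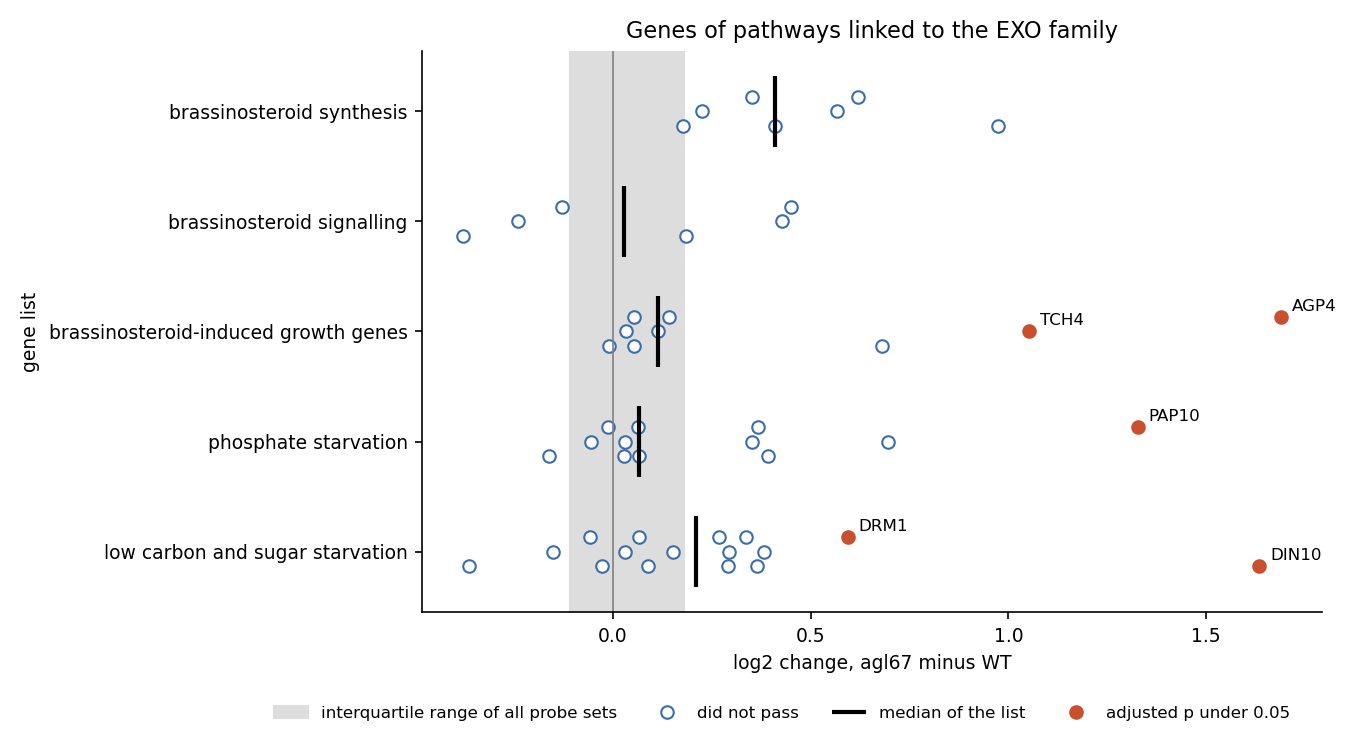
Log2 change (agl67 minus WT) of each paired gene in 5 lists linked to the family (filled: limma adjusted p under 0.05, open: did not pass), with the median of each list (black line) and the interquartile range of all probe sets, -0.11 to 0.18 (grey band). With all arrays included, the 7 open points of brassinosteroid synthesis lie above 0, and the 5 filled points are AGP4, TCH4, PAP10, DIN10 and DRM1.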

How the data were processed

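The authors deposited log2 expression values, 1 per probe set and array, with RMA and limma named in the submitters' processing notes (versions are not given in the sources used here). A second table by the authors, deposited with it, gives log2 ratios, p-values and limma false discovery rates, per the file headers; 6 columns of values per array in it were not used. Here, limma 3.58.1 in R 4.3.3 was fitted to all 22746 probe sets (64 controls left out) with genotype as the only term, eBayes defaults and Benjamini-Hochberg adjustment over all of them, with a threshold of 0.05. The fit was tested on simulated data. P-values measure the spread between these samples, which the labels call biological replicates. The number of arrays limits the precision.

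Genes were named through the platform's gene table (13513 probe sets with 1 gene, 503 with several, 8730 not listed), joined to RefSeq (TAIR10.1) by gene ID. Of the 50 list genes, 43 were named through symbols or titles in the authors' table. The files name no genome build, so no coordinates are printed. The members and lists were chosen with earlier results of these data known. For each list, up to 4 passing genes or else the 2 smallest p-values are named, with KCS1, EXPA5, TIP2;1 and AGP4 in any case. DET2, BRI1, BAK1, BIM1, PHO1, PHR1, ASN1, SEN1, GDH2, the named seed storage genes and the neighbours of EXO were added after their values were seen. Alternatives were a replicate block, 5 of the 6 arrays at a time, array weights, robust or trended variance estimation, renewed quantile normalization, median centring, leaving out the dimmest 40% and the authors' table.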

Additional observations from a re-analysis of the deposited data

How the results depend on the processing

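No change of a relative fell below 0 in the 14 alternatives that were run, and the count of relatives that rose was 1 to 4 with 1 array left out, the lowest without the second or the third mutant array. The median over the 8 members, among them EXO, which was chosen for its rise, was 1.02 in the main fit. It was 0.84 to 1.12 with 1 array left out. Removing the dimmest 40% of probe sets, which leaves out 2 members with small changes, gave 1.44. For the 7 relatives alone the median in the main fit was 0.71. Of the 50 list genes, 0 to 9 rose with 1 array left out, 10 rose with array weights, and 1 fell with an intensity trend. Over all probe sets, the counts with 1 array left out were 68 to 877 higher and 18 to 653 lower; with array weights 956 and 534; 449 were lower after renewed quantile normalization, 340 after median centring and 110 with the replicate block. EXPA5 ranged from -0.0073 to 0.0955 with 1 array left out (negative without the first mutant array) and was -0.0136 after median centring. TIP2;1 ranged from -0.0958 to 0.315 (negative only when the third wild-type array was missing) and was -0.0921 with array weights. The causes were not tested. The labels do not say whether equal replicate numbers pair samples across genotypes. Deviations of same-numbered arrays correlated at -0.158, 0.145 and 0.217, and those of differently numbered arrays at -0.334 to 0.337. With 3 arrays per genotype these correlations cannot settle the pairing. With the replicate block, 248419_at passed (adjusted p = 0.0264) and DRM1 did not (0.0729). The probe set 248419_at also passed with an intensity trend (0.0358), array weights (0.0108), median centring (0.0305) and without the dimmest 40% (0.0454).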
